A study of Danio rerio with 4 samples.

Results

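Hatching gland genes were followed in bulk RNA of zebrafish embryos as 6 rows of the deposited table, taken by symbol: he1a, ctsl1b, xbp1, klf4, agr2 and cd63. The table holds 32538 rows, and all 6 genes were among the 13448 that had a usable estimate in every library and a mean of at least 1 FPKM over the 4 libraries. FPKM, the fragments of a transcript scaled by its length and by the depth of the library, is a level per transcript length. The controls were wild type and the mutants carried the vgo allele of tbx1, described as null in the labels, with 2 libraries per genotype. Embryos were at 6 somites, 12 h after fertilization, and polyadenylated RNA came from what was left of the embryo once the end of the tail and some adjoining yolk had been cut away for genotyping. Strain, the number of embryos in a library and the parentage of the controls are not given in the sources used here, and the p-values cover no more than the differences among these libraries, which may be technical. RNA of tbx1 itself was lower in both mutant libraries, at 4.91 and 4.52 FPKM, than in the control libraries, at 9.08 and 9.14 FPKM.

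The hatching gland is a transient organ of the fish embryo. Its cells come from the front end of the axial mesendoderm, the polster of the prechordal plate, gather around the head and over the yolk, and fill with granules. When the granules are released, proteases in them soften the chorion, the egg envelope, and the embryo hatches. At 6 somites the cells are still in front of the brain and are building up their secretory machinery, so the genes fall into granule proteases (he1a, ctsl1b), a granule and endosome membrane protein (cd63), endoplasmic reticulum (ER) and secretory factors (xbp1, agr2) and a transcription factor (klf4).

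Levels of the 6 genes spanned a wide range in these embryos. Averaged over the 4 libraries, he1a stood at 264 FPKM and xbp1 at 262 FPKM, and 486 and 488 of the genes tested had higher means. Their order was not fixed, since he1a was above xbp1 in control 1 and mutant 1 and below it in control 2 and mutant 2. cd63 followed at 104 FPKM and ctsl1b at 94.7 FPKM, with cd63 above ctsl1b in each library by a ratio of 1.04 to 1.16, although the ranges of the 2 genes over libraries overlapped. That order is uncertain, because the authors' 95% bounds for cd63, from 69.8 to 80.5 FPKM over the libraries, exclude its own values and lie wholly below those for ctsl1b, from 84.2 to 106.5 FPKM. klf4 was lower, at 50.9 FPKM, and its range overlapped that of no other member. agr2, at 3.71 FPKM, was far below the others, with 71.3% of the genes tested above it. RNA of the defining hatching enzyme gene he1a was measured in every library, while xbp1, klf4, agr2 and cd63 are also used by other tissues of the embryo, so their levels are not those of the gland alone. In such bulk samples, fewer gland cells and less RNA per cell cannot be told apart.

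**Figure D1:**
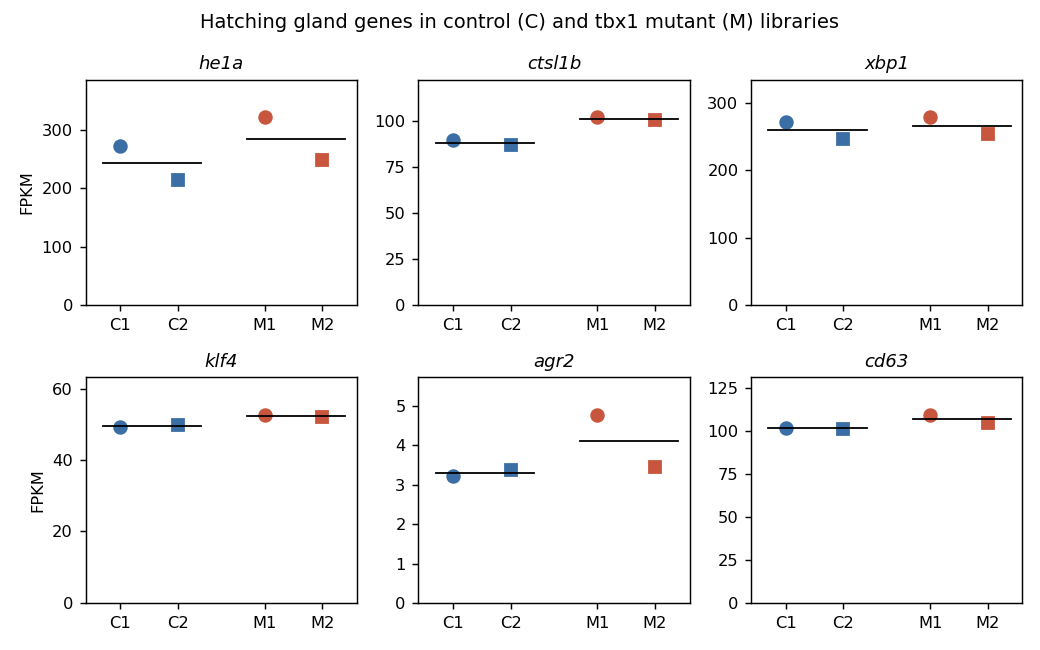
FPKM of each of the 6 genes (vertical axes, each from 0) in control libraries 1 and 2 (C1, C2, blue) and tbx1 mutant libraries 1 and 2 (M1, M2, red); circles are libraries numbered 1, squares those numbered 2, and lines are group means. The mutant pair lies above the control pair for ctsl1b, klf4, agr2 and cd63, while for he1a and xbp1 the libraries numbered 2 lie below those numbered 1.

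The hatching enzyme gene he1a encodes a zinc metalloprotease of the astacin family that digests the chorion. Its row (ENSDARG00000023656, now named he1.1) lies on Zv9 chromosome 22 from 14237423 to 14238861. It read 272 FPKM in control 1, 214 FPKM in control 2, 322 FPKM in mutant 1 and 248 FPKM in mutant 2. The genotypes overlapped, because mutant 2 was below control 1, but the libraries numbered 2 were both below those numbered 1. Group means were 243 ± 41.3 FPKM in controls and 285 ± 52.2 FPKM in mutants (SD, n = 2 each). Within number 1 the mutant was 18.1% above the control, and within number 2 it was 15.8% above. On the log2(FPKM + 0.5) scale the genotype difference was 0.23 (SE 0.178, 95% interval -0.24 to 0.69) and did not pass (unadjusted limma p of 0.266, adjusted p = 1.0). That fit leaves out library number, so the difference between numbers adds to the SE. With the number as a block the SE was 0.0443, and he1a again did not pass (unadjusted limma p of 0.00784, adjusted p = 0.920).

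The neighbouring hatching enzyme gene he1b (ENSDARG00000019122, now he1.2) begins 3281 bp beyond he1a and moved over the libraries in the same way. It stood at 64.2 and 49.5 FPKM in controls 1 and 2, against 78.3 and 57.6 FPKM in mutants 1 and 2. The ratio of he1a to he1b stayed between 4.11 and 4.32 in all 4 libraries. Tandem copies can share reads, and the authors' rules for dividing such reads are not given in the sources used here, so this near-constant ratio is uncertain. Summed with he1b, a setting chosen after seeing the data, he1a had a genotype difference of 0.23 on the log2 scale (limma, adjusted p = 1.0). The next astacin gene in the row, he2 (now he1.3), was listed at 0 in 3 libraries and at 0.0466 FPKM in mutant 1, so of these 3 loci he1a and he1b held nearly all the FPKM.

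The other granule protease symbol, ctsl1b, stands for a cathepsin L type cysteine protease. RefSeq gives ctsl1b and hgg1, for hatching gland gene, as older names of ctslb, which the gene name table pairs with another row of the deposited table, wu:fa26c03 (ENSDARG00000074306), while the ID of the row deposited as ctsl1b has no name in either table. The values below may therefore not be those of the hatching gland gene. The row deposited as ctsl1b (ENSDARG00000039173) lies on Zv9 chromosome 12 from 17684089 to 17686709. The row read 89.5 and 87.1 FPKM in controls 1 and 2, against 102 and 100.3 FPKM in mutants 1 and 2. Here the genotypes did not overlap, and the replicates lay close together, with means of 88.3 ± 1.73 FPKM in controls and 101 ± 1.22 FPKM in mutants (SD, n = 2 each). Mutant RNA was 13.9% above control within number 1 and 15.2% above within number 2. The log2 difference was 0.19 (SE 0.0617, 95% interval 0.033 to 0.36), with an unadjusted limma p of 0.0277. Adjusted over all genes tested the p was 1.0, so the gene did not pass.

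Several further cathepsin L loci lie beside ctsl1b, and most of them could not be measured. wu:fb37b09 (ENSDARG00000095254, now si:dkey-239j18.2, with ctsl among its RefSeq synonyms) lies 22.0 kb away. Controls 1 and 2 stood at 91.7 and 83.9 FPKM, mutants 1 and 2 at 112 and 109.9 FPKM, again without overlap, 22.7% higher in the mutant within number 1 and 31.0% higher within number 2. Its log2 difference of 0.34 (SE 0.0737) had an unadjusted limma p of 0.00683 and an adjusted p of 1.0. BX465840.1 (now si:dkey-239j18.3), 14.8 kb from ctsl1b on the other side, is a locus whose function the tables used do not give. It read 11.9 and 8.74 FPKM in controls 1 and 2, against 15.0 and 10.4 FPKM in mutants 1 and 2, higher in the mutant within each number but with overlapping genotypes. Both neighbours were picked with their values in view.

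Of the 11 rows in the whole table that carry the status HIDATA in all 4 libraries, 7 lie within 300 kb of ctsl1b, and 5 of these 7 belong to genes with ctsl among their RefSeq synonyms. In Cufflinks this status marks a locus with too many fragments to process, and the 0 deposited there is a failed estimate, not an absence of RNA. Among them is wu:fa26c03, the row that the gene name table calls ctslb, so that locus has no usable value. The RNA of the whole cathepsin L cluster is therefore not known from these data, and the ctsl1b value may hold or lack reads shared with its neighbours.

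**Figure D2:**
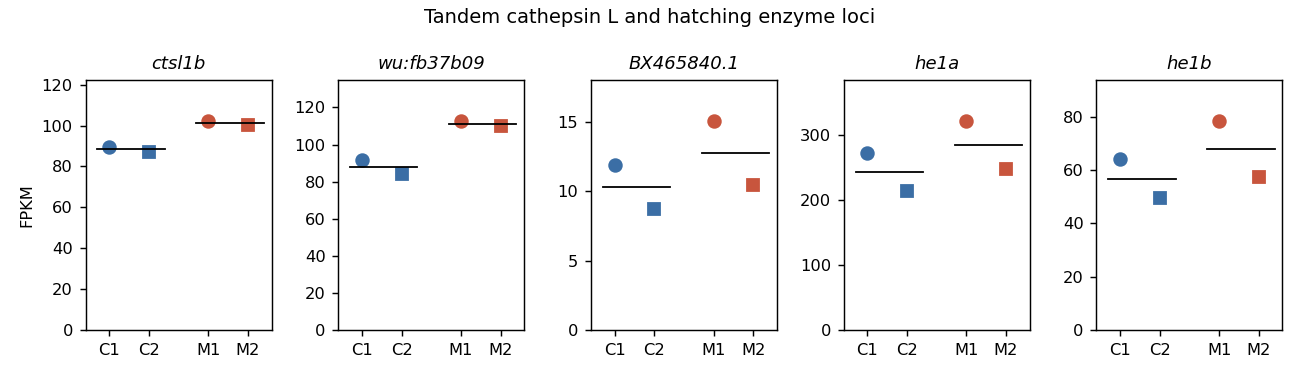
FPKM (vertical axes, each from 0) of ctsl1b, its neighbours wu:fb37b09 and BX465840.1, and the tandem hatching enzyme genes he1a and he1b in the 4 libraries, with symbols as above: C1 and C2 controls, M1 and M2 mutants, circles for number 1, squares for number 2, lines for group means. Both mutants lie above both controls for ctsl1b and wu:fb37b09, whereas the genotypes overlap for BX465840.1, he1a and he1b.

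The tetraspanin cd63, a membrane protein of late endosomes and secretory granules that is strongly made in hatching gland cells, varied little. Its row (ENSDARG00000025147, chromosome 23 from 32304746 to 32324518) read 101 FPKM in control 1 and 101 FPKM in control 2, then 109 FPKM in mutant 1 and 105 FPKM in mutant 2. Both mutants were above both controls, by 7.47% within number 1 and by 3.60% within number 2, and the highest library was 1.08 times the lowest. The log2 difference was 0.077 (SE 0.0628, 95% interval -0.088 to 0.24; limma, adjusted p = 1.0). In each of the 4 libraries the deposited value lay above its own 95% interval, for example above the bounds of 70.9 to 76.8 FPKM in control 1, so the absolute level of cd63 is uncertain. Of all values tested, 26.0% lay outside their own interval, and of the 6 genes only cd63 (4 of 4 values) and agr2 (1 of 4) had such values.

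Among the secretory factors, xbp1 encodes the bZIP transcription factor that is activated by unconventional splicing of its RNA under ER load and turns on genes of protein folding and export. It is a known marker of the zebrafish hatching gland. The row (ENSDARG00000035622, chromosome 5 from 17718233 to 17722743) lies 0.799 Mb from tbx1, the only one of the 6 genes on that chromosome. It read 272 and 246 FPKM in controls 1 and 2, against 278 and 254 FPKM in mutants 1 and 2. The genotypes overlapped, and the mutant was above the control by 2.40% within number 1 and by 2.96% within number 2. With a log2 difference of 0.038 (SE 0.0882, 95% interval -0.19 to 0.27; limma, adjusted p = 1.0), xbp1 had the smallest genotype difference of the 6. The direction turned when control 2 was left out (-0.033) or mutant 1 was left out (-0.029). Either omission leaves the library numbers unbalanced between genotypes, and xbp1 was lower in number 2 in both genotypes. Of the 10 other genes tested within 1 Mb of xbp1, without tbx1, 5 were higher and 5 lower in the mutants, with a median log2 difference of 0.018. The values are for the whole gene, and spliced and unspliced xbp1 RNA were not separated.

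agr2 encodes an ER protein of the disulfide isomerase family that in mammals is needed to make mucus. At 2553 bp on chromosome 19 (ENSDARG00000070480, from 31646941 to 31649494) it was the least abundant of the 6. Controls 1 and 2 read 3.23 and 3.38 FPKM, mutants 1 and 2 read 4.77 and 3.46 FPKM. The genotypes did not overlap, but mutant 2 was only 2.23% above control 2, while mutant 1 was 47.8% above control 1. The log2 difference was 0.26 (SE 0.169, 95% interval -0.18 to 0.71; unadjusted limma p of 0.184, adjusted p = 1.0), and without mutant 1 it was 0.057. The value of mutant 1 also lay above its own interval of 3.18 to 4.73 FPKM.

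The row called klf4 (ENSDARG00000038792, chromosome 2 from 33044396 to 33046563) is the gene now named klf17, as both name tables give it. It encodes the zebrafish Krüppel-like zinc finger factor of the polster and of early blood. Its highest library was 1.07 times its lowest, the smallest such ratio of the 6 genes, with controls 1 and 2 at 49.1 and 49.7 FPKM and mutants 1 and 2 at 52.6 and 52.1 FPKM. The genotypes did not overlap, and the mutants were higher by 7.12% within number 1 and by 4.73% within number 2. Means were 49.4 ± 0.449 FPKM and 52.3 ± 0.357 FPKM (SD, n = 2 each), with a log2 difference of 0.082 (SE 0.0619, 95% interval -0.080 to 0.24; limma, adjusted p = 1.0). A separate row, klf4a (now klf4), was at 1.253 and 1.121 FPKM in controls 1 and 2, against 1.295 and 0.786 FPKM in mutants 1 and 2, so the factor read here as klf4 is the abundant one of the pair.

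Across the genotype comparison, which asks how mutant embryos differ from controls, all 6 genes leaned the same way by small amounts. None of the 6 passed an adjusted p of 0.05 in limma, against 0.0669% of all genes tested. The larger difference of tbx1 itself, -0.88 on the log2 scale, did not pass either (limma, adjusted p = 0.227). At an unadjusted p under 0.05 there was 1 of the 6 (ctsl1b), against 1.99% of all genes. Both mutant values lay above both control values for 4 of the 6 (ctsl1b, klf4, agr2 and cd63) and for 15.6% of all genes. The mutant was higher than the control within both library numbers for 6 of 6, and for 31.2% of all genes. The median log2 difference of the 6 was 0.14, beside 0.017 for all genes tested. The 6 were picked as genes of 1 organ with earlier results known, and share their libraries, so these counts are a description and not a test. Upper ends of the 95% intervals ran from 0.24 (cd63 and klf4) to 0.71 (agr2) on the log2 scale, and differences up to those sizes lie within the intervals of this fit. For a single gene, the smallest p that an exact permutation test over these 4 libraries allows is 0.333.

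**Figure D3:**
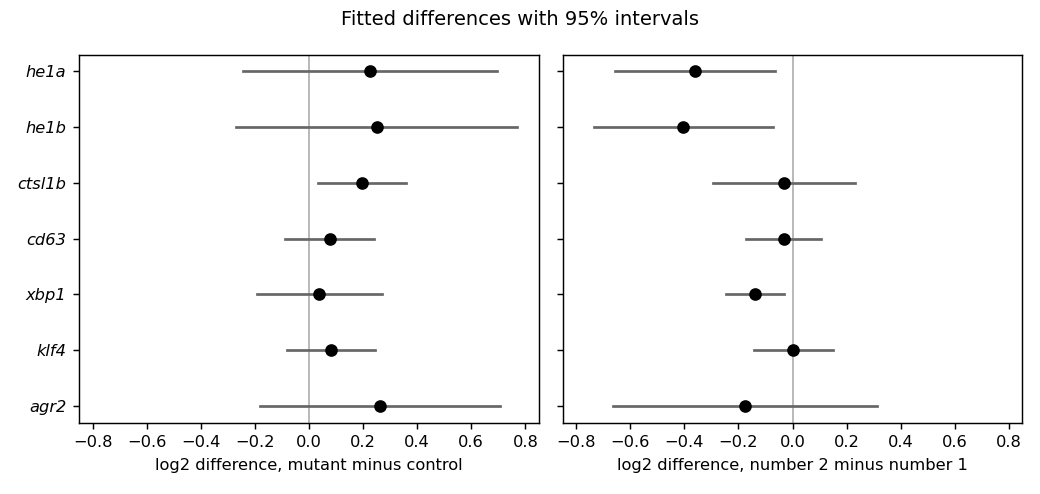
Fitted log2(FPKM + 0.5) differences (points) with 95% intervals (lines) for the 6 genes and he1b, mutant minus control on the left and libraries numbered 2 minus those numbered 1 on the right. On the left all points are above 0 and of the intervals only that of ctsl1b leaves out 0; on the right he1a, he1b and xbp1 lie below 0 with intervals that leave it out.

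**Figure D4:**
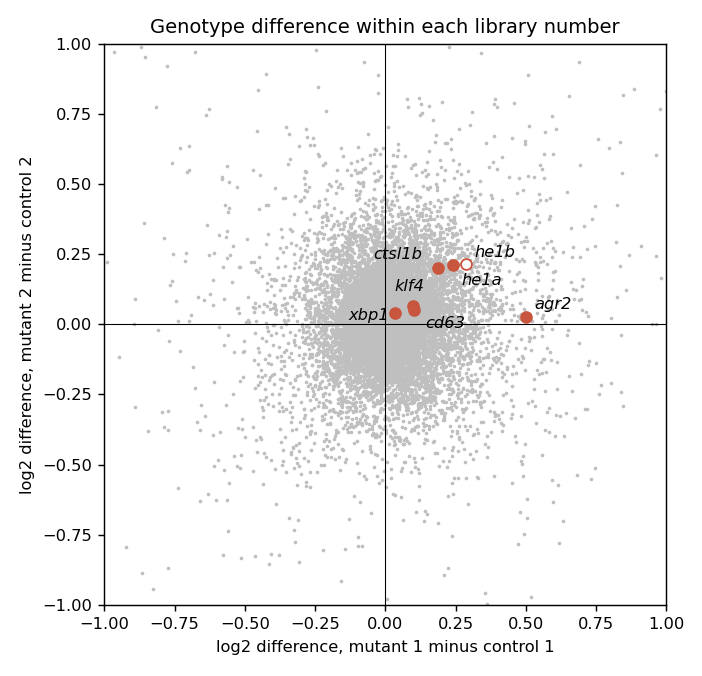
log2(FPKM + 0.5) difference of mutant 1 from control 1 (horizontal axis) against that of mutant 2 from control 2 (vertical axis) for all 13448 genes tested (grey; 282 lie outside the axes), with the 6 genes as filled circles and he1b as an open circle. All named genes are in the upper right of the plot, he1a at 0.24 and 0.21 and ctsl1b at 0.19 and 0.20, while agr2 is far along the horizontal axis at 0.50 and close to 0 on the vertical axis at 0.028.

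Split by library number, a label whose meaning is not given, he1a and xbp1 separated without overlap and the other 4 genes did not. he1a had a mean of 297 ± 34.8 FPKM in the libraries numbered 1 and 231 ± 23.9 FPKM in those numbered 2 (SD, n = 2 each). Its log2 difference between numbers was -0.36 (SE 0.112, 95% interval -0.66 to -0.065; unadjusted limma p of 0.0267, adjusted p = 0.211). Relative to number 1, number 2 stood at -21.5% in the controls and at -23.0% in the mutants, so it was lower in both genotypes. For xbp1 the means were 275 and 250 FPKM, with number 2 at -9.38% relative to number 1 in controls and -8.89% in mutants and a log2 difference of -0.14 (SE 0.0404; unadjusted limma p of 0.0220, adjusted p = 0.201). For both genes the fitted difference between numbers was larger in size than that between genotypes, a contrast that was not itself tested. Neither passed over all genes, as 0.0521% of all genes did. With an unadjusted p under 0.05, these 2 of 6 stand beside 19.4% of all genes, or 9.47% counting those lower in number 2, and being lower in both libraries numbered 2 without overlap beside 28.7%. A further 23.9% of all genes were higher in both libraries numbered 2 without overlap, so separation by number was not particular to he1a and xbp1.

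The other 4 genes showed log2 differences between numbers of -0.032 for ctsl1b, 0.0023 for klf4, -0.033 for cd63 and -0.18 for agr2, each with an unadjusted limma p of at least 0.386. The rows he1a and ctsl1b kept no constant ratio: he1a was 3.04 times ctsl1b in control 1 and 3.15 times in mutant 1, but 2.46 times in control 2 and 2.47 times in mutant 2. he1a was the only gene of the 6 whose log2 level ranged over at least 0.5 across the 4 libraries (0.59), with agr2 just short of that at 0.4997. Outside the 6, the genes with the most similar profile over the 4 libraries, by Euclidean distance of log2 values centred on their means, were snai1b (distance 0.0270), GPR31 (0.0381), msxc (0.0397), chchd6a (0.0405) and nat8l (0.0422). he1b came at place 10, at 0.0543. Over 4 points such likeness is a description only.

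Other genes of the gland and of the prechordal plate, from which it arises, did not all have fitted genotype differences of the same sign. Of 5 further hatching gland genes tested, 4 were higher and 1 lower in the mutants, with a median log2 difference of 0.044 (-0.035 to 0.074 with 1 library left out) and 0 called. Beside he1b they were foxa3 (0.044), frzb (0.082), prdm1a (0.023) and gsc (-0.045), which encode a forkhead factor, a secreted Wnt antagonist, a zinc finger factor that specifies the gland in zebrafish and a homeobox factor of the organizer. Within both library numbers the mutant was higher for 3 of the 5 and lower for 0, beside 31.2% and 20.7% of all genes. The sign for gsc was not fixed: it read 8.21 FPKM in control 1 and 8.95 FPKM in mutant 1, but 11.8 FPKM in control 2 and 10.1 FPKM in mutant 2. Between library numbers frzb and gsc went the opposite way from he1a: frzb read 8.25 and 8.31 FPKM in control 1 and mutant 1 and 11.1 and 12.4 FPKM in control 2 and mutant 2, a log2 difference of 0.48 (unadjusted limma p of 0.00198, adjusted p = 0.142), and gsc had 0.33. Of 15 prechordal plate genes tested, which include 4 of those 5 (foxa3, frzb, prdm1a and gsc), 10 were higher in the mutants and 0 were called. Their median was 0.044, which is again the value of foxa3 (-0.035 to 0.074 with 1 library left out), with nog1 at 0.18 and oep at 0.097 as the genes of lowest p. Within both library numbers the mutant was higher for 7 of the 15 and lower for 0. By library number, 10 of the 15 had an unadjusted p under 0.05 in limma, 66.7% beside 19.4% of all genes. They were led by frzb and by chd, which encodes a BMP antagonist (log2 0.59). The 15 did not go 1 way by number, with 9 higher and 6 lower in number 2, among the lower six3a (-0.50) and nog1 (-0.29).

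Genes of the ER and of secretion, the pathway in which xbp1 and agr2 work, were also compared. Of 32 ER folding and degradation genes tested, 28 were higher in the mutants, with a median log2 difference of 0.071, a range of -0.12 to 0.19 and 0 called. The median of all genes was 0.017, and 57.2% of all genes were above 0. The chaperone gene hsp90b1 read 19.3 and 19.9 FPKM in controls 1 and 2, against 21.8 and 22.2 FPKM in mutants 1 and 2 (log2 0.16, unadjusted limma p of 0.0712, adjusted p = 1.0), and calrl, a calreticulin gene, had a log2 difference of 0.17. By library number syvn1 was at -0.22 and manf at 0.19. Of 38 genes of ER entry and export, 24 were higher, with a median of 0.025 and 0 called, ssr3 at -0.27 and sec23a at 0.13. By library number 19 were higher and 19 lower in number 2, with srp19 (0.23) and sec61al2 (0.17) of lowest p.

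Among 12 tested ER stress sensors and regulators, 6 were higher and 6 lower, with a median of -0.0028 and 0 called. bhlha15, which encodes the Mist1 factor of secretory cells, read 6.60 and 6.63 FPKM in controls 1 and 2, against 8.22 and 9.58 FPKM in mutants 1 and 2, without overlap. Its log2 difference was 0.40 (SE 0.106), with an unadjusted limma p of 0.0148 and an adjusted p of 1.0. ern1, encoding the sensor IRE1 that splices xbp1 RNA, was at 0.19. By library number 4 of the 12 were higher and 8 lower in number 2, with mbtps1 (-0.18) and ddit3 (-0.33) of lowest p.

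**Figure D5:**
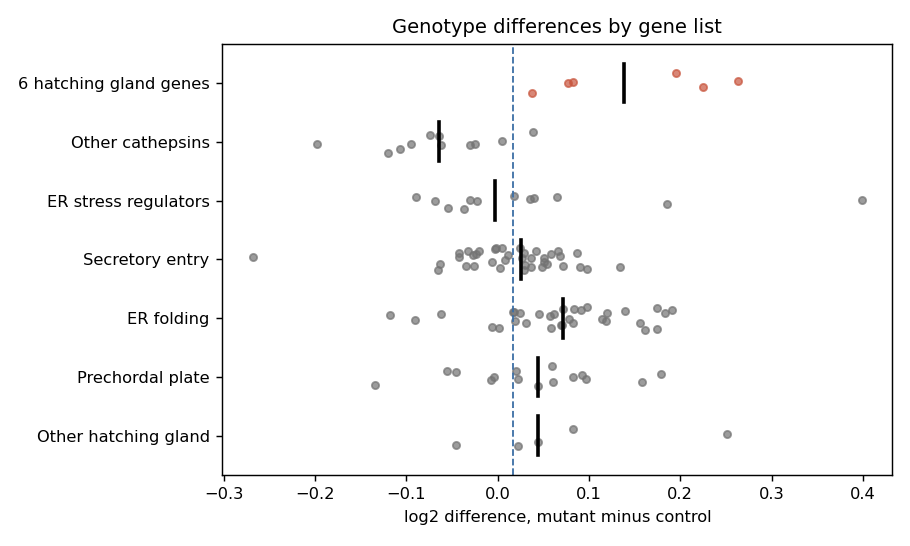
Genotype differences (horizontal axis, log2(FPKM + 0.5), mutant minus control) of the genes tested in each list drawn, 1 point per gene, with the list median as a black bar and the median of all genes tested (0.017) as a dashed line. Vertical scatter has no meaning. The other lists are not drawn, and their medians ran from -0.083 (yolk syncytial) to 0.12 (Krüppel-like factors). The 6 hatching gland genes (red) have a median of 0.14, ER folding genes of 0.071 and other cathepsins of -0.064, and within these lists 0 genes passed an adjusted p of 0.05 in limma.

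Relatives of the members by family had 0 calls as well. Of 11 other cathepsin genes in the list that were tested, 9 were lower and 2 higher in the mutants (median -0.064), with the lysosomal ctsba at -0.20 and ctsl1a, a cathepsin L gene, at 444 FPKM in controls and 421 FPKM in mutants (-0.074). The list does not hold ctsl.1 (0.18) or wu:fb37b09 (0.34), cathepsin L genes that leaned the same way as ctsl1b and were added after their values were seen. By number ctsc was at 0.29 and ctsd at -0.16. In the astacin family 3 of 4 were higher (median 0.11, and -0.037 to 0.19 with 1 library left out), with npsn at -0.28 and tll1 at 0.17. By number 2 of the 4 were higher and 2 lower in number 2, with bmp1a at -0.38. The 4 include he1b (0.25), which was already counted among the further hatching gland genes. Of 11 Krüppel-like factor genes 8 were higher (median 0.12, and -0.017 to 0.19 with 1 library left out), with the gene now named klf8 at 0.17 and klf12b at 0.30. By number 5 of the 11 were higher and 6 lower in number 2, with copeb (-0.25) and klf5a (-0.33) of lowest p. Left out of that list was klf4a (now klf4), which was tested, at a mean of 1.11 FPKM, and had a genotype difference of -0.15. Relative to the control, its mutant stood at 3.36% within number 1 and at -29.9% within number 2, so the 2 numbers differed in direction. Of 21 tetraspanin genes 10 were higher and 11 lower (median -0.0068), with tspan9b at 0.26 and si:dkey-52k20.13 at -0.32, and by number cd9a at -0.24 and tspan15 at 0.41.

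With 1 library left out, the median genotype difference turned sign in 9 of the 14 lists. It kept its sign for the ER folding, cathepsin, blood and myeloid, yolk syncytial and notochord lists. Each such fit leaves the library numbers unbalanced between genotypes. These medians, and the ranges given above for single lists, therefore also hold part of the difference between numbers.

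Markers of other tissues that use some of these genes were read beside them. Over 18 periderm genes with a usable estimate, summed levels were 10511 and 9265 FPKM in controls 1 and 2, against 10343 and 9359 FPKM in mutants 1 and 2, lower with number 2 as he1a and xbp1 were. Of the 18 tested, 12 were lower in number 2 and 10 were higher in the mutants, with cldnf at 0.18 and cdh1 at 0.12 between genotypes and cyt1l at -0.28 and krt17 at -0.26 between numbers. Of all 13448 genes tested, 7337 were lower in number 2 and 7695 were higher in the mutants. The counts of this and the next lists stand beside those. For 18 blood and myeloid genes the sums were 182 and 165 FPKM in controls 1 and 2, against 189 and 165 FPKM in mutants 1 and 2. Of 10 tested, 8 were higher in the mutants and 9 lower in number 2, with lcp1 at 0.23, spi1 at 0.34, gata2a at -0.30 by number and tal1 at -0.23 by number. The sums over 9 epidermis and ionocyte genes were 119 and 107 FPKM in controls 1 and 2, against 125 and 104 FPKM in mutants 1 and 2. Of 6 tested, 5 were lower in number 2, among them tp63 (-0.30) and foxi3a (-0.34). Between genotypes 5 of the 6 were higher in the mutants, among them dlc (0.047), and gata3 was lower (-0.041). Only 2 of the 6 were higher within both numbers and 1 was lower, and dlc was at 0.22 within number 1 and -0.12 within number 2. No gene of these lists with a usable estimate was at 0 in all libraries, and 0 were called.

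Yolk syncytial genes leaned downward in the mutants, with 12 of 15 tested lower (median -0.083), apoc2 at -0.13 and serpina1l at -0.090. In number 2, 10 of the 15 were lower and 5 higher (median -0.045). The genes of lowest p by number were rbp4 (-0.53) and fgb (-0.64), while mtp (0.28) was among the higher. Notochord genes, the neighbours of the prechordal plate along the midline, had 10 of 13 higher (median 0.057), with cav1 at 0.16, col9a2 at 0.26, ntla at 0.52 by number and col2a1a at -0.29 by number. For col9a2, controls 1 and 2 read 1.43 and 1.48 FPKM, against 2.29 and 1.46 FPKM in mutants 1 and 2, so mutant 2 was below control 2. That list also holds copa, copb1 and copb2, each counted as higher, and its median is the value of copb2. The part of these tissues in the values of the 6 genes was not tested. The files give no read totals. Ratios of the lowest values between libraries gave depths, relative to control 1, of 0.838 for control 2, 0.821 for mutant 1 and 0.724 for mutant 2, and the authors' 95% intervals had median half-widths of 8.25% to 9.54% of the value.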

How the data were processed

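FPKM values of every gene in each library, with 95% bounds, a status and a Zv9 locus, were deposited by the authors as 1 table; its columns are titled RPKM and its last line FPKM, per the file headers. Per the submitters' processing notes, Cufflinks 2.1.1, TopHat2 2.0.8, Cuffdiff 2.0.2, TopHat and build danRer7 (Zv9) were used; their order and the annotation are not given in the sources used here. Loci are printed as deposited.

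Of 32538 rows, 138 lacked an OK status in all libraries and 18952 more had a mean below 1 FPKM. The remaining 13448 were fitted as log2(FPKM + 0.5), which understates the changes of low genes, with limma 3.58.1 in R 4.3.3 (empirical Bayes with trend, two-sided, Benjamini-Hochberg over all genes, threshold 0.05), once by genotype and once by library number. The fit was checked on simulated data that held no library-number effect and planted changes larger than the differences of the 6 genes. That check therefore does not cover differences as small as theirs. Of 286 entries in 14 lists, 228 were matched by table symbol and 28 by current symbol, 2 were members, 3 repeated a row and 25 were not matched. Named genes are the 6, the other hatching gland genes, and per list the 2 of lowest p in each comparison. Members and lists were chosen with earlier results of these data known. Alternatives were pseudocounts, minimum levels, normalizations, empirical Bayes options, short loci left out, the other factor in the model, and each library left out. Figures were drawn with matplotlib 3.10.9.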

Additional observations from a re-analysis of the deposited data

How the results depend on the processing

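Under the alternatives run, 0 of the 6 genes passed in either comparison (lowest adjusted p = 0.705 by genotype and 0.109 by number in limma). Of 84 genotype values, 82 kept their direction. The exceptions were xbp1 without control 2 (-0.0328) and without mutant 1 (-0.0289), within a range of -0.0328 to 0.109 as single libraries were left out. Those fits leave the library numbers unbalanced between genotypes. Within numbers 1 and 2 the genotype difference of xbp1 was 0.034 and 0.042. Of 84 values by number, 77 kept their direction. klf4 turned to -0.0511 after quantile normalization, and with 1 library left out ranged from -0.0468 to 0.0514, ctsl1b from -0.133 to 0.0691, agr2 from -0.427 to 0.0730 and cd63 from -0.0848 to 0.0187. he1a stayed lower in number 2, at -0.48 to -0.24, and higher in the mutants, at 0.037 to 0.41, where leaving out a library also leaves the numbers unbalanced; within numbers 1 and 2 its genotype difference was 0.24 and 0.21.

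The count of genes called by genotype was 9, against 1 with no minimum, 16 with robust empirical Bayes and, with 1 library left out, 30 (control 1), 28 (control 2), 39 (mutant 1) and 37 (mutant 2). By number it was 7, against 1 with no minimum, 176 with robust empirical Bayes, 70 without loci under 300 bp and 39, 33, 32 and 32 without these libraries in the same order. With 3 libraries the lone one is assumed to vary like the others. The cause was not tested.

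With the replicate number as a block, the genotype fit called 9 genes, and 611 instead of 267 had an unadjusted p under 0.05. The log2 differences of the 6 stay as they were; the SE of he1a went to 0.0443 (unadjusted limma p of 0.00784, adjusted p = 0.920) and that of ctsl1b to 0.0435 (unadjusted limma p of 0.0121, adjusted p = 0.920). No label gives the number a meaning. Deviations of same-numbered libraries from their group means correlated at -0.00510 across genes, and at 0.347 at loci of at least 300 bp. The precision rests on 2 libraries per group, as the intervals given show.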
